A study of Mus musculus with 8 samples.

Results

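The genes described here are 8 markers of resting CD4+ T cells or of regulatory T cells: Igfbp4, Dapl1, Nsg2, Actn1, Gpr83, Izumo1r, Ly6c1 and Ly6c2. They were chosen by symbol because earlier results of these data showed contrasting levels in the mouse lines T143 and T138, and they are 8 of 24453 genes in the deposited table. All 8 were among the 15547 genes that passed the filter on low values. Because the difference between T143 and T138 chose the genes, it is described below without a test. The comparisons of each line with wild type (WT) were tested, but they use the same T143 and T138 libraries that chose the genes, and both use the same WT libraries.

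The study sequenced poly(A) RNA of mouse T cells sorted as CD4-positive and Foxp3-positive, in 3 T143, 2 T138 and 3 WT libraries. T143 and T138 are lines made by somatic cell nuclear transfer, in which a mouse is derived from the nucleus of 1 T cell and its T cells carry that cell's rearranged receptor. Each line therefore stands for 1 donor nucleus. The series asked whether T138, described there as a naturally occurring regulatory T cell model, and T143, whose development looked agonist-induced, are distinct subsets. All 3 groups, WT included, carry the label NOD-Foxp3GFP-Rag1-/-, that is NOD mice with a Foxp3 reporter and no Rag1. WT mice are not described as derived from a T cell nucleus with a rearranged receptor. Their libraries nevertheless carried Cd4 at 14770 to 17655 and Foxp3 at 29773 to 36362 normalised reads. The Rag1 label is therefore doubtful for WT, and any difference between a line and WT may also be a difference in Rag1 genotype. The part of Rag1 genotype was not tested. Ages and treatments are not given in the sources used here beyond a statement that there was no treatment. The labels do not tie replicates to mice, and p-values therefore cover only the spread among libraries, which may be technical.

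Naive and resting T cells circulate through lymphoid organs and keep a quiet transcriptional program, held by factors such as TCF1, LEF1, FOXP1 and KLF2. On activation these cells lose much of this program and gain effector genes. Regulatory T cells, defined by the transcription factor FOXP3, exist in resting (central) and activated (effector) forms, and several of the genes described here are used to tell such forms apart. Igfbp4 encodes a secreted protein that binds insulin-like growth factors, Dapl1 a small protein related to death-associated protein, Nsg2 an endosomal membrane protein studied mainly in neurons, and Actn1 the actin crosslinker alpha-actinin-1. Gpr83 encodes a G protein-coupled receptor, and Izumo1r the GPI-anchored folate receptor 4, which marks regulatory and anergic CD4 T cells and serves as the egg's receptor for sperm IZUMO1. Ly6c1 and Ly6c2 encode the GPI-anchored surface antigens detected as Ly6C, found on some T cells and at high levels on monocytes.

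Several properties of the libraries bear on the values that follow. In 2 libraries the source name contradicts the title: T143 replicate 1 is said there to come from T138 and WT replicate 1 from T143. Titles, model labels and descriptions were followed. In Xist and Ddx3y, given below, both libraries lie with the other libraries of the group in their title. The sorted fractions carried transcripts of other cells. Neutrophil markers made up 0.565, 0.95 and 3.39% of all signal in T143, 0.141 and 0.0265% in T138, and at most 0.00493% in WT. Of 10 monocyte markers, 10 passed as higher in T143 than in WT and 7 as higher in T138 than in WT. Cd4 was at 15941, 12858 and 10922 normalised reads in T143, at 12820 and 12235 in T138, and at 14770, 16651 and 17655 in WT. Foxp3, the other sort marker, was at 3920, 6299 and 8694 in T143, at 41854 and 41161 in T138, and at 29773, 36362 and 35360 in WT, so the T143 libraries lie below all others. Every T143 library also carried Xist at 19143 or more, and no T138 or WT library carried more than 129.93. Ddx3y, a gene of the Y chromosome, was at 3634 and 3175 in T138, at 2923, 3018 and 2094 in WT, and at no more than 1.27 in T143. In comparisons with T143, sex therefore cannot be told apart from line, while T138 and WT both carried Ddx3y. Library depth ran from 7.83 M reads (T143 replicate 1) to 22.64 M (WT replicate 1).

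The upstream sequences of Igfbp4 and Dapl1 are shown because both hold TATA box letters near the start, in a range set after the matches were seen. Their log2 changes against WT in T143 were 3.74 and 6.62, beside 3.79 for Ly6c1 and 6.18 for Ly6c2, which lack that feature. The 250 bases upstream of the RefSeq start (GRCm38.p6) are given for both, at chr11:99040994-99041243 and chr2:59484403-59484652 on the plus strand, with the TATA box letters TATAAA in capitals.
Igfbp4: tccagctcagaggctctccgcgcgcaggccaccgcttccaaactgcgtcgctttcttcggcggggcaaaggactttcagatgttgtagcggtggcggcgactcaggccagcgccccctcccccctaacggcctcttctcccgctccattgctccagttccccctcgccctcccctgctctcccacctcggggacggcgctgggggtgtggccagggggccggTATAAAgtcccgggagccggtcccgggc
Dapl1: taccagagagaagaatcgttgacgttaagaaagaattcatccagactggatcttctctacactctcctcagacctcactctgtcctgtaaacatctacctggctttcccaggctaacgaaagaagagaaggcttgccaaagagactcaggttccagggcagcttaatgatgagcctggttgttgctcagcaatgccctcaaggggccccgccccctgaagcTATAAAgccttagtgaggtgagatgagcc
The letters begin 28 bases upstream of the start in Igfbp4 and 29 bases upstream in Dapl1. For Igfbp4 that RefSeq start lies inside the gene span given below, which begins at 99040005. A match that begins 25 to 35 bases upstream on the gene's own strand was present in 2 of these 8 genes and in 1.75% of the 32851 promoters listed. Because that range was set after the matches were seen, the 2 of 8 cannot be weighed against the 1.75%. On either strand and anywhere in the window, TATAAA was present in 3 of the 8 genes, the other being Ly6c1, and in 12.4% of promoters. The 2 windows differ in base composition, with 69.2% GC in Igfbp4 and 50% in Dapl1, against a median of 52.4% over all windows.

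Letters bound by factors of resting T cells were also searched in the 8 windows, on both strands. The TCF/LEF letters CTTTGNT occurred in 1 of 8 genes (Nsg2) and in 16% of promoters. The FOX letters GTAAACA occurred in 1 of 8 genes (Dapl1) and in 3.17% of promoters. The KLF letters CCNCNCCC, which can overlap one another in GC-rich sequence, occurred in 5 of 8 genes and in 45.9% of promoters. These are matches of letters in a reference sequence, the mice are labelled as NOD, and no binding was measured.

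Igfbp4, on chromosome 11 (chr11:99040005-99052655, GRCm38), was far higher in T143 than in either other group. It was at 26842, 14163 and 9688 normalised reads in T143, at 914.4 and 692.6 in T138, and at 1092, 1255 and 1120 in WT. Every T143 library lay above every other library, and both T138 libraries lay just below all WT libraries. Against WT, the log2 change in T143 was 3.74 ± 0.30 (SE; limma, adjusted p = 5.83e-05), a 14.6-fold difference of means. In T138 it was -0.54 ± 0.34 (limma, adjusted p = 0.367), with a 95% confidence interval of -1.28 to 0.21. T143 exceeded T138 by 4.28 on the log2 scale. Per kilobase of transcript, Igfbp4 averaged 4410 ± 2320 normalised reads in T143 (SD, n = 3), 210.0 ± 40.9 in T138 (n = 2) and 302.0 ± 22.6 in WT (n = 3). That level put Igfbp4 at percentile 99.1 of genes in T143, 62.4 in T138 and 70.4 in WT.

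Dapl1 (chr2:59484653-59505020) was very low in WT. It was at 3473, 2037 and 741.4 normalised reads in T143, at 40.4 and 112.6 in T138, and at 11.7, 24.5 and 15.96 in WT. The 3 groups did not overlap, and the WT values rest on 17 to 23 reads a library. The log2 change against WT was 6.62 ± 0.59 in T143 (limma, adjusted p = 7.26e-05) and 1.96 ± 0.65 in T138 (adjusted p = 0.0855, 95% confidence interval 0.51 to 3.41). The T138 difference passed under some alternatives, as when T143 replicate 3 was left out, so it sits near the threshold. T143 exceeded T138 by 4.66. Dapl1 was also the most variable of these genes within T143, with a coefficient of variation of 65.6%, against 52.7% for Igfbp4, 17.4% for Actn1 and 12.9% for Gpr83.

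Nsg2 (chr11:31999704-32059211) and Actn1 (chr12:80167542-80260420) were higher than WT in T143 and lower than WT in T138. Nsg2 was at 4273, 2348 and 1708 normalised reads in T143, at 128.9 and 94.0 in T138, and at 771.4, 584.7 and 675.6 in WT. Its 3 groups did not overlap, with WT in the middle. It rose by 1.94 ± 0.30 against WT in T143 (limma, adjusted p = 0.00142) and fell by 2.60 ± 0.33 in T138 (adjusted p = 0.00109). Actn1 was at 5483, 4869 and 3852 in T143, at 775.6 and 495.3 in T138, and at 2106, 1467 and 1469 in WT. Its groups were likewise separate and in the same order. Actn1 rose by 1.5 ± 0.21 in T143 (adjusted p = 0.000993) and fell by 1.42 ± 0.24 in T138 (adjusted p = 0.00442). Without T138 replicate 2 the T138 change of Actn1 was -1.09 and no longer passed. T143 exceeded T138 by 4.54 for Nsg2 and by 2.92 for Actn1.

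The 4 genes ordered the T143 libraries alike: replicate 1 was highest and replicate 3 lowest for Igfbp4, Dapl1, Nsg2 and Actn1. Replicate 1 had the lowest share of neutrophil transcripts in that group and replicate 3 the highest. Markers of conventional CD4 T cells other than the 8 genes (Cd40lg, Il2, Tcf7, Lef1, Satb1 and Ccr7) summed to 36780 to 72720 normalised reads in T143, 6642 to 7354 in T138 and 26730 to 27070 in WT, with Il2 listed at 0 in 6 of the 8 libraries. Of these 6 genes, 4 of which are also in the list of resting T cell genes, 2 passed as higher in T143 and 4 as lower in T138 against WT, and their part in the result was not tested. CD8 T cell markers, of cells that the CD4 sort would remove, summed to 752.2 to 1293 normalised reads in T143, 612.1 to 669.3 in T138 and 370.9 to 585.4 in WT. Of these 6 genes, 2 passed as higher in T143 than in WT, Gzmk and Klrk1, where 11.7% of all tested genes did. In T138 Klrk1 passed as higher (log2 change 5.07) and Eomes as lower (-1.67) than WT. Cd8a and Cd8b1, which encode CD8 itself, did not pass in either line. Of 6 markers of natural killer cells, 5 passed as higher in T143 and 4 as higher in T138 against WT. The part of such cells in the values was not tested. In bulk RNA, fewer cells of a type and less RNA per cell cannot be told apart. Divided by the geometric mean of 4 T cell genes (Cd3e, Cd3d, Cd3g, Cd4) and multiplied by 1000, Igfbp4 was at 2200, 1610 and 1420 in T143, at 105.0 and 78.3 in T138, and at 116.0, 163.0 and 105.0 in WT. On the same scale Actn1 was at 449, 553 and 565 in T143, at no more than 89.3 in T138 and at no more than 223 in WT. This scaling reversed the order of the T143 libraries for Actn1, and T143 stayed above both other groups for both genes. For Actn1 T138 also stayed below WT, whereas for Igfbp4 T138 replicate 1 and WT replicate 3 both stood at 105.0.

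**Figure D1:**
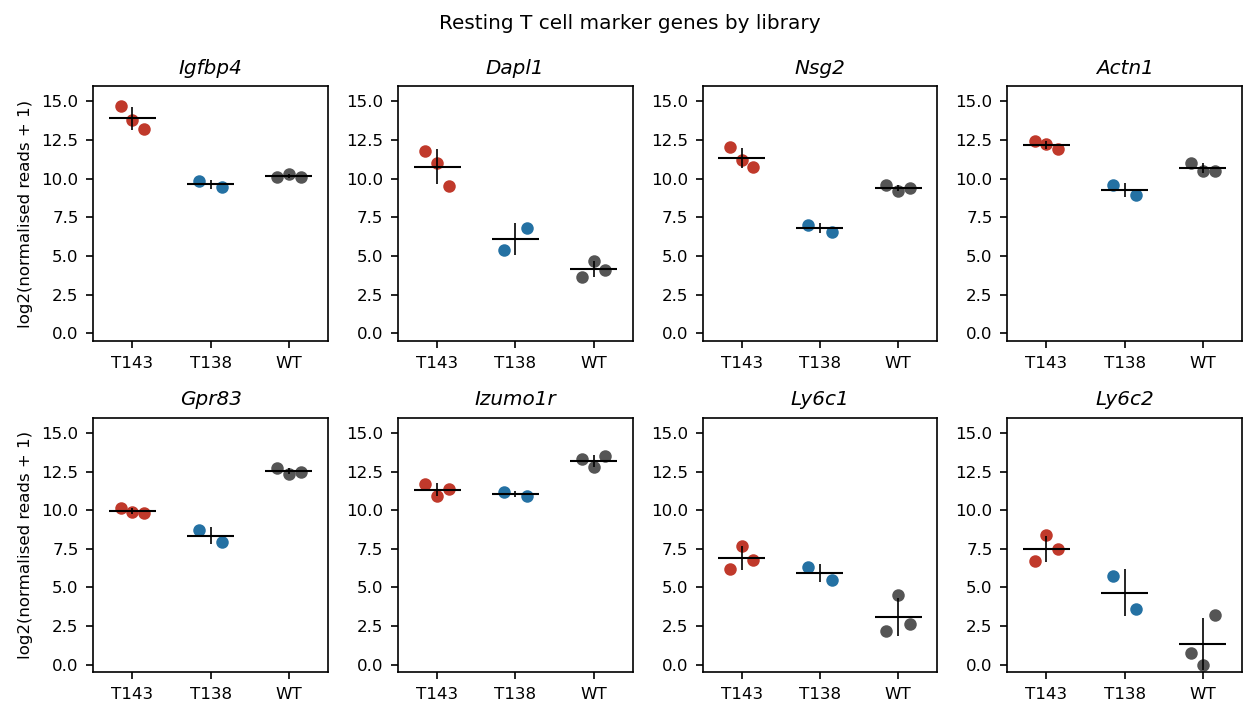
Each panel shows 1 gene as log2(normalised reads + 1) for the libraries of T143 (3), T138 (2) and WT (3). Points are libraries, horizontal lines group means and vertical lines ± SD. Igfbp4, Dapl1, Nsg2 and Actn1 are highest in T143, and Gpr83 and Izumo1r are highest in WT.

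Gpr83 and Izumo1r went the other way, being lower than WT in both lines. They are neighbours on chromosome 9, at chr9:14859880-14870789 and chr9:14885814-14903951, with 15 kb between them and no tested gene in that gap. The genes are read from opposite strands, and their upstream windows (chr9:14859960-14860209, plus strand, and chr9:14903768-14904017, minus strand, GRCm38.p6) are shown because the pair moved together against WT. No letters are in capitals, since neither window holds the TATA box, TCF/LEF or FOX letters. The KLF letters occur in the Gpr83 window, beginning 179 and 97 bases upstream on the opposite strand, and not in the Izumo1r window.
Gpr83: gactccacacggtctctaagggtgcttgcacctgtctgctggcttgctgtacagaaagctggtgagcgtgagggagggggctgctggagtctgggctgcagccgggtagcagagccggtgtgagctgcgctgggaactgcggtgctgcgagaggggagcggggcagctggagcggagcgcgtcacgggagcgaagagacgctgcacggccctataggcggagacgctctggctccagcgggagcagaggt
Izumo1r: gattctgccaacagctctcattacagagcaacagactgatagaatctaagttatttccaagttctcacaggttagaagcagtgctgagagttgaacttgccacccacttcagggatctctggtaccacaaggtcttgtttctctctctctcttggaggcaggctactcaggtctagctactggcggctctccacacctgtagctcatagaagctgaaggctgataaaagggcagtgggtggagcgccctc
The Gpr83 window has 66.8% GC and 18 CpG dinucleotides, and the Izumo1r window 50% GC and 2 CpG dinucleotides. The pair thus shares its surroundings but not the composition of its upstream sequence.

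Gpr83 was at 1150, 955.7 and 904.7 normalised reads in T143, at 422.2 and 249.8 in T138, and at 6906, 5281 and 5693 in WT. The 3 groups were separate, with T138 lowest. It fell by 2.57 ± 0.20 against WT in T143 (limma, adjusted p = 4.39e-05) and by 4.18 ± 0.23 in T138 (adjusted p = 2.42e-05), which left T138 at 0.0564 times the WT mean. T143 exceeded T138 by 1.62. On unscaled values, Gpr83 had the lowest coefficient of variation of these 8 genes among the T143 libraries.

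Izumo1r was at 3377, 1950 and 2628 normalised reads in T143, at 2335 and 1924 in T138, and at 10019, 7065 and 11907 in WT. The T143 and T138 values overlap and lie below all WT values. It fell by 1.87 ± 0.23 in T143 (limma, adjusted p = 0.000462) and by 2.16 ± 0.26 in T138 (adjusted p = 0.000764). T143 and T138 differed by 0.29, so the contrast between lines for which the gene was listed is not seen in its values. Izumo1r was among the more abundant transcripts in every group, with per-kilobase means of 2050 ± 553 in T143, 1650 ± 225 in T138 and 7490 ± 1890 in WT, or percentiles 97.3, 96.4 and 99.7. Gpr83 by the same per-kilobase measure was at percentile 68.7 in T143, 46.5 in T138 and 96.8 in WT.

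Both genes are used as regulatory T cell markers, and Foxp3 itself did not share their pattern in T138. Foxp3 changed by -2.49 ± 0.24 in T143 against WT (limma, adjusted p = 0.000117) and by 0.30 ± 0.27 in T138 (adjusted p = 0.542). Of 15 regulatory T cell genes listed, Foxp3 included, 12 passed as lower and 0 as higher in T143 against WT, among them Il2ra (-3.43), Ikzf4 (-3.52) and Nt5e (-3.50). Of all tested genes, 12.1% passed as lower and 11.7% as higher in that comparison. The list was chosen with earlier results of these data known. In T138 4 of the 15 passed as lower and 1 as higher, where 5.3 and 5.74% of all tested genes did. The lower genes there were Tnfrsf9 (-2.06), Ikzf4 (-1.51), Lrrc32 (-3.71) and Il2ra (-0.71), and the higher one was Socs2 (1.18). Lrrc32 encodes GARP, which anchors latent TGF-beta, and Tnfrsf9 the costimulatory receptor 4-1BB. The median log2 change of the 15 genes was -2.49 in T143 and 0.01 in T138, against 0.053 and -0.065 over all genes tested.

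**Figure D2:**
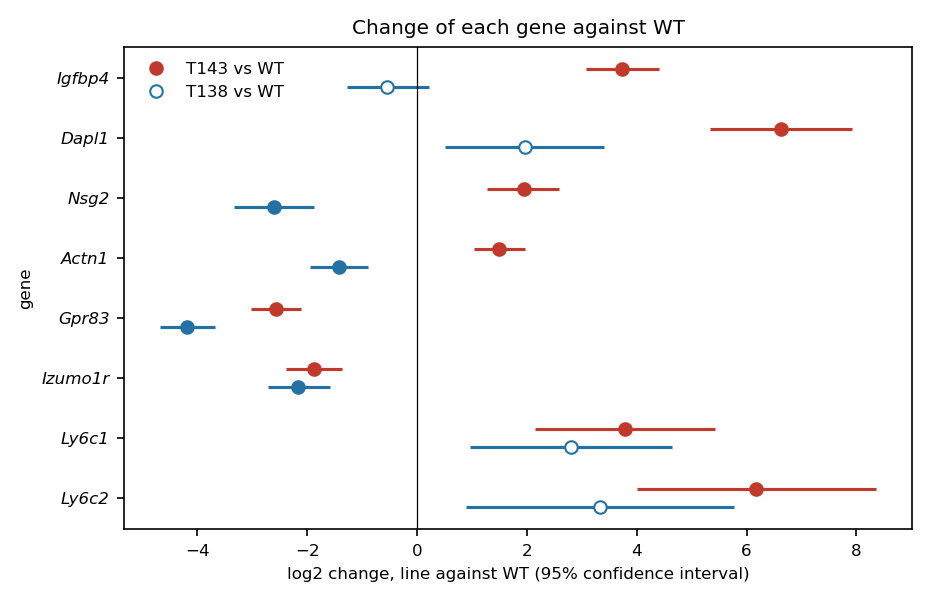
Horizontal axis, log2 change of each line against WT, with 95% confidence intervals. Filled points passed at an adjusted p under 0.05 and open points did not. Nsg2 and Actn1 lie on opposite sides of 0 in T143 and T138, and Gpr83 and Izumo1r lie below 0 in both.

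Ly6c1 (chr15:75044018-75048920) and Ly6c2 (chr15:75108161-75112066) are near-identical copies 59.2 kb apart. Their coding sequences are 393 bases each and differ by 9 substitutions (97.7% identity), and 32.6% of all 50-base stretches of the Ly6c2 transcript also occur in Ly6c1. The sources used here do not give how multi-mapped reads were counted, so the division of reads between the copies is uncertain. The first 90 coding bases (GENCODE transcripts, GRCm38, minus strand) hold 6 of the 9 differences, shown in capitals, and are given as an example of bases by which a read can tell the copies apart.
Ly6c1: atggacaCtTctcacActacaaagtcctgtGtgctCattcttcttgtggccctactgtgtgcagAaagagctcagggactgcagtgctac
Ly6c2: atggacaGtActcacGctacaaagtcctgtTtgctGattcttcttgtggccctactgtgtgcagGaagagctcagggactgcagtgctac

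Both Ly6c genes were low in every library and lowest in WT. Ly6c1 was at 71.6, 208.7 and 107.7 normalised reads in T143, at 78.7 and 44.0 in T138, and at 3.44, 21.3 and 5.32 in WT. The T143 and T138 values overlap, and both lie above WT, where the values rest on 5 to 20 reads. Ly6c2 was at 101.5, 330.9 and 175.8 in T143, at 52.2 and 11.01 in T138, and at 0.69, 0 and 8.36 in WT. In WT these are 1, 0 and 11 reads, and the 0 allows up to 3 reads, a value of 3.19. T143 lay above T138 and T138 above WT for Ly6c2.

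Against WT, Ly6c1 rose by 3.79 ± 0.74 (limma, adjusted p = 0.00486) and Ly6c2 by 6.18 ± 0.99 (adjusted p = 0.00173) in T143. In T138 the log2 changes were 2.81 ± 0.83 for Ly6c1 (adjusted p = 0.055) and 3.33 ± 1.10 for Ly6c2 (adjusted p = 0.0824). These fitted changes depend on the pseudocount of 1 because the WT values are so low. With the reads of both copies summed, which removes the question of their division, T138 passed as higher than WT (2.85, adjusted p = 0.0348) and so did T143 (4.65, adjusted p = 0.00105). The summed values stood at 173.1, 539.6 and 283.4 in T143, at 130.9 and 55 in T138, and at 4.13, 21.3 and 13.7 in WT.

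As counted, the copies differed in their balance between the lines, a contrast not tested because levels in the lines chose the genes. Ly6c2 held 58.6, 61.3 and 62.0% of the Ly6c reads in T143 and 39.8 and 20.0% in T138. The exact binomial 95% intervals of those shares were 47.6 to 69.1, 56.5 to 66.0 and 55.4 to 68.3% in T143, and 31.5 to 48.7 and 11.1 to 31.8% in T138, covering counting error only. The WT shares of 16.7, 0 and 61.1% rest on 6, 20 and 18 reads and span most of the range (upper bounds 64.1, 16.8 and 82.7%). By these counts the larger copy was Ly6c2 in all T143 libraries and Ly6c1 in both T138 libraries. The interval of T143 replicate 1 reaches down to 47.6%, so the larger copy is not settled there. That interval also overlaps the interval of T138 replicate 1, which reaches up to 48.7%. How reads were divided between the copies remains uncertain.

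Ly6C is carried by monocytes as well as T cells, and the summed monocyte markers were, like these genes, lowest in WT. The summed monocyte markers were at 16900 to 85710 normalised reads in T143, 13110 to 16870 in T138 and 830.6 to 1035 in WT. Most of the T138 sum was Ccr2, at 11586 and 10248 there, and Lyz2 and Chil3 led the sum in every T143 library. Ccr2 was lower in T143 than in T138 (log2 change -1.82, limma, adjusted p = 0.0177). The summed neutrophil markers were at 88040 to 528900 in T143, 4134 to 22060 in T138 and 39.3 to 768.9 in WT. Of the 10 neutrophil markers 9 passed as higher in T143 and 8 as higher in T138 against WT, and 4 to 7 of them were at 0 in each WT library. Among 10 dendritic cell markers 9 passed as higher than WT in each line, and 6 passed as lower in T143 than in T138, a comparison in which 21.0% of all tested genes passed. Ly6g, the granulocyte member of the family, lies 43.2 kb from Ly6c2. It was at 531.4, 715.2 and 1448 in T143, at 103.4 and 85.5 in T138, and at 4.13, 0 and 0 in WT. The Ly6c sum was highest in T143 replicate 2, and the neutrophil and monocyte sums were highest in T143 replicate 3. The part of these cells in the Ly6c values was not tested.

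**Figure D3:**
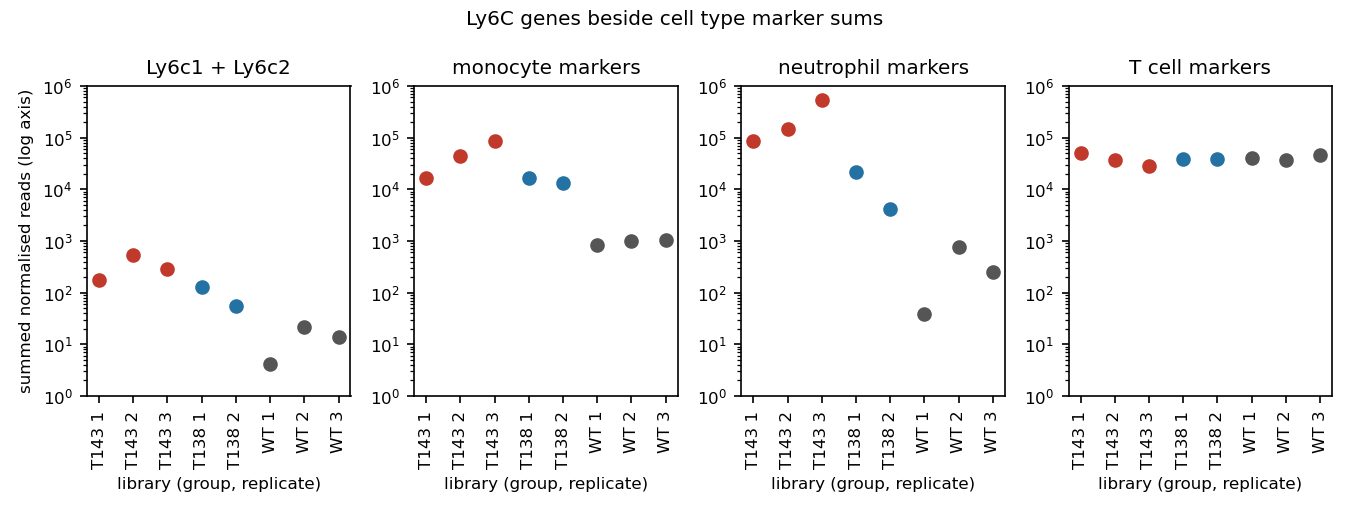
Each point is a library, in the order T143, T138, WT, and the vertical axis (log scale) gives summed normalised reads. The Ly6c genes, the monocyte markers and the neutrophil markers are lowest in WT, whereas the T cell markers (Cd3e, Cd3d, Cd3g, Cd4) stay between 28610 and 50100 in every library.

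Other members of the Ly6 family were read beside Ly6c. Ly6a, which encodes Sca-1, averaged 3716 ± 1873 in T143 (SD, n = 3), 3576 ± 1008 in T138 (n = 2) and 2508 ± 873.9 in WT (n = 3), and it passed in no comparison. Ly6e averaged 5735 ± 1357 in T143, 3176 ± 428.8 in T138 and 4956 ± 1512 in WT (SD, the same n), passed as higher in T143 than in T138 (log2 change 0.83, limma, adjusted p = 0.0418) and did not pass against WT. Of 11 tested members of the wider family besides Ly6c1 and Ly6c2, Ly6g and Plaur, the urokinase receptor gene, passed as higher in each line against WT. Plaur changed by 4.32 in T143 and 3.21 in T138, and it was highest (1574) in T143 replicate 3, the library with the most neutrophil signal. The only lower call was Ly6k in T138, where it was listed at 0 in both libraries, against 57.2, 21.3 and 53.2 in WT.

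Against WT, 8 of the 8 genes passed in T143, 6 higher and 2 lower, where 23.8% of all tested genes passed (11.7% higher and 12.1% lower). In T138 4 of 8 passed, all lower (Nsg2, Actn1, Gpr83 and Izumo1r), where 11.0% of all tested genes passed (5.74% higher and 5.3% lower). By position alone, 6 genes had every T143 library above every WT library and 2 below, as 20.0 and 20.7% of all tested genes did, and 3 had both T138 libraries above and 5 below, as 17.7 and 19.8% did. Nsg2 and Actn1 passed in opposite directions, and Gpr83 and Izumo1r passed as lower in both lines. Between the lines, 6 of 8 genes had every T143 library above every T138 library, which 28.0% of all tested genes also showed, and Izumo1r and Ly6c1 overlapped. Since that contrast chose the genes, nothing is read from the count. The median log2 change of the 8 genes was 2.84 for T143 against WT and -0.98 for T138 against WT, beside 0.053 and -0.065 over all genes tested. With the level of monocyte and neutrophil markers as a covariate, which runs with the groups, 0 of the 8 genes passed in either comparison with WT. The fitted changes were then 6.45 for Igfbp4, 12.89 for Dapl1, 4.82 for Nsg2, 2.23 for Actn1, -2.45 for Gpr83, -0.76 for Izumo1r, -1.19 for Ly6c1 and 2.73 for Ly6c2 in T143 against WT, so that the sign of Ly6c1 turned. In T138 against WT they were 1.10 for Igfbp4, 5.76 for Dapl1, -0.86 for Nsg2, -0.97 for Actn1, -4.11 for Gpr83, -1.49 for Izumo1r, -0.21 for Ly6c1 and 1.24 for Ly6c2, with the signs of Igfbp4 and Ly6c1 turned.

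The counts did not rest on the libraries with a mismatched source name. Without T143 replicate 1 and WT replicate 1, 8 genes passed for T143 and 4 for T138 against WT, and the T143 changes were 3.3 for Igfbp4, 5.89 for Dapl1, 1.67 for Nsg2, 1.56 for Actn1, -2.56 for Gpr83, -2.02 for Izumo1r, 3.67 for Ly6c1 and 6.31 for Ly6c2. The T138 changes that passed were then -2.5 for Nsg2, -1.24 for Actn1, -4.07 for Gpr83 and -2.11 for Izumo1r. Without T143 replicate 3 and T138 replicate 1, the library of each line with the most neutrophil signal, 8 and 5 genes passed, Dapl1 being the added call in T138.

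Other genes of resting T cells were read from a list chosen with earlier results of these data known. Its counts therefore cannot test how far the pattern extends. Of 25 such genes listed, 24 were tested, and T138 fell below WT for most of them. In T138 13 passed as lower and 2 as higher (Il7r and Klf2), with a median log2 change of -1.15. Of all tested genes, 5.3% passed as lower and 5.74% as higher in T138. The smallest p-values belonged to Il7r, the interleukin-7 receptor gene (2.73 ± 0.16), Treml2 (-2.18 ± 0.16), the survival gene Bcl2 (-2.16 ± 0.17) and the transcription factor gene Tcf7 (-2.28 ± 0.21). In T143 6 passed as higher and 4 as lower against WT, with a median of 0.37, where 11.7 and 12.1% of all tested genes did. Pik3ip1, an inhibitor of PI3-kinase (1.19 ± 0.20), Satb1, a chromatin organiser (1.08 ± 0.20), and Tcf7 (1.00 ± 0.19) were higher, and Als2cl (-1.06 ± 0.15) was lower. The number higher in T143 was 12 without T143 replicate 3 and 4 without T143 replicate 1.

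Igfbp4, Dapl1, Nsg2 and Actn1, which were chosen for their difference between the lines, had log2 changes of 1.5 to 6.62 against WT in T143, beside up to 1.33 ± 0.33 in the list (Atp1b1, which encodes a sodium pump subunit). The lowest of the 4, Actn1 at 1.5 ± 0.21, lies within error of that value. In T138 Nsg2 and Actn1 fell like Tcf7 and Satb1, while Igfbp4 and Dapl1 did not pass. Il7r ran opposite to most of the list, at 3970, 4328 and 5244 in T143, at 18654 and 19783 in T138, and at 2693, 3280 and 2771 in WT.

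**Figure D4:**
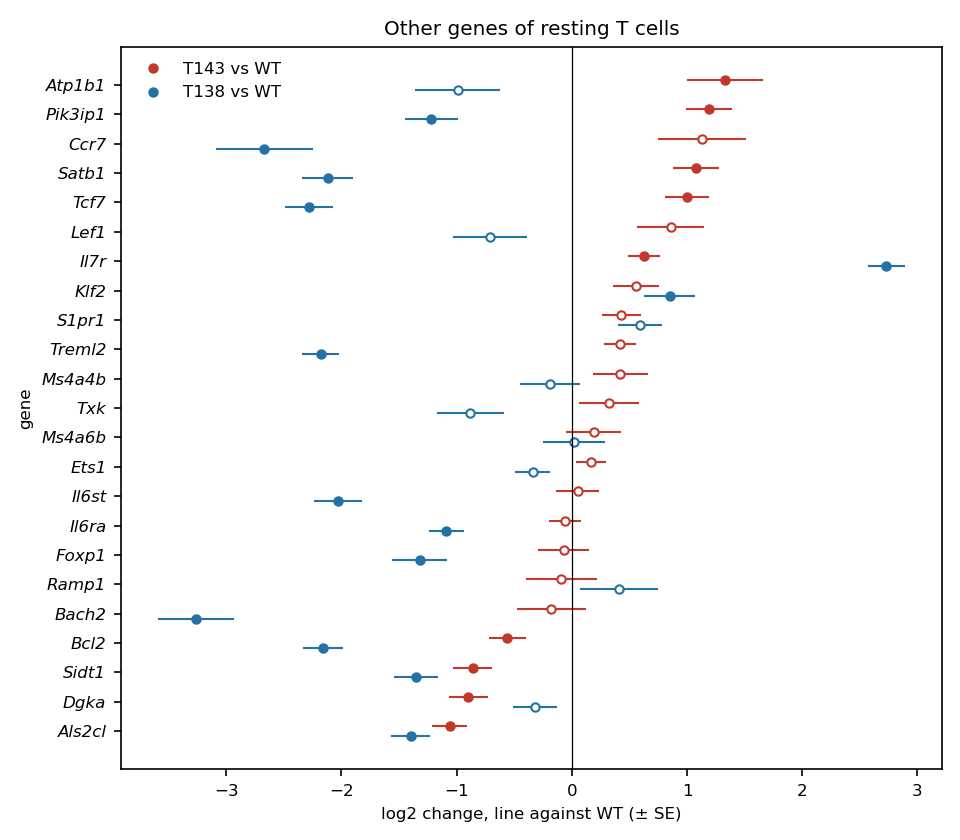
Horizontal axis, log2 change of each line against WT (± SE) for other genes of resting T cells, 1 of the 24 tested being left out, in order of the T143 change. Filled points passed at an adjusted p under 0.05. The T138 points lie left of 0 for most genes, from -3.26 (Bach2) to 2.73 (Il7r), and the T143 points lie between -1.06 and 1.33.

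Genes that act with Igfbp4 were read from a list. Of 17 genes of insulin-like growth factors, their receptors and binding proteins, 12 were tested, and 3 passed against WT in T143 (23.8% of all tested genes did) and 3 in T138 (11.0% of all did). Igf1r, the receptor for IGF1, was lower than WT in T143 (-1.64 ± 0.22) and in T138 (-1.87 ± 0.24), and so was Igf2r, the clearance receptor for IGF2 (-0.88 ± 0.15 and -2.11 ± 0.17). Igf1 was higher than WT in T143 (4.05 ± 0.84), at 57.7, 371.6 and 215.4 against 16.5, 5.32 and 8.36 in WT. Within T143, Igf1 was lowest in replicate 1, where Igfbp4 was highest and the monocyte marker sum lowest. Igfbp7 was higher than WT in T138 (3.03 ± 0.75). No binding protein gene other than Igfbp4 and Igfbp7 exceeded a value of 50 in any library. The calls named for Igf1r, Igf2r, Igf1 and Igfbp7 passed in limma at an adjusted p under 0.05, and the other tested genes of the 12 did not pass against WT.

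Among 17 genes of actinins, focal adhesions and integrins, 4 passed as higher and 1 as lower in T143 against WT, beside 23.8% of all tested genes in either direction. Vcl, which encodes vinculin, a partner of alpha-actinin at adhesions, changed by 1.76 ± 0.34, the LIM protein gene Pdlim1 by 1.16 ± 0.29, Zyx by 0.80 ± 0.26 and Flna by 0.42 ± 0.13, and the integrin gene Itgb1 by -1.14 ± 0.17. Vcl was highest (2637) in T143 replicate 3, the library with the most neutrophil signal, where Actn1 was lowest. In T138, where 11.0% of all tested genes passed, 1 of the 17 did, Itgal, which encodes the LFA-1 alpha chain (-0.80 ± 0.15). Actn4, the other broadly expressed actinin gene, changed by 0.13 ± 0.13 in T143 and -0.34 ± 0.14 in T138 and did not pass against WT.

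Chromosomal neighbours were compared by taking the 3 nearest tested genes on each side of each gene, a rule chosen after values were seen. Of 36 distinct neighbours, 4 passed as higher and 5 as lower in T143 against WT, and 2 as higher and 5 as lower in T138 against WT, beside 23.8% and 11.0% of all tested genes in either direction. Ccr7, the chemokine receptor gene for entry to lymph nodes, lies 91.5 kb from Igfbp4 and fell in T138 (-2.67 ± 0.42, limma, adjusted p = 0.00419), with a change of 1.13 ± 0.38 in T143 (adjusted p = 0.0575). Top2a, 15.8 kb from Igfbp4 on the other side, passed in neither comparison. Tanc1, 106.8 kb from Dapl1, rose in T143 (1.52 ± 0.22, adjusted p = 0.000993). Il9r, the interleukin-9 receptor gene 128.3 kb from Nsg2, rose in T138 (3.71 ± 0.45, adjusted p = 0.000875), opposite to Nsg2.

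Beside Gpr83 and Izumo1r the flanking genes differed among themselves. Fut4, which encodes a fucosyltransferase and lies 107.8 kb from Gpr83, was higher than WT in T143 (2.39, adjusted p = 0.0378), opposite to Gpr83 and Izumo1r, and its change in T138 was 2.68, which did not pass. Mre11a, 22.8 kb from Gpr83, changed by -0.29 ± 0.15 in T143 and -0.60 ± 0.17 in T138, which passed (adjusted p = 0.0412). Panx1, 101.8 kb from Izumo1r, changed by -0.08 ± 0.20 in T143 and -0.08 ± 0.23 in T138, and neither passed. Zfp36l1, 54.5 kb from Actn1, was lower in T143 (-1.58 ± 0.20, adjusted p = 0.000536), where Actn1 was higher.

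**Figure D5:**
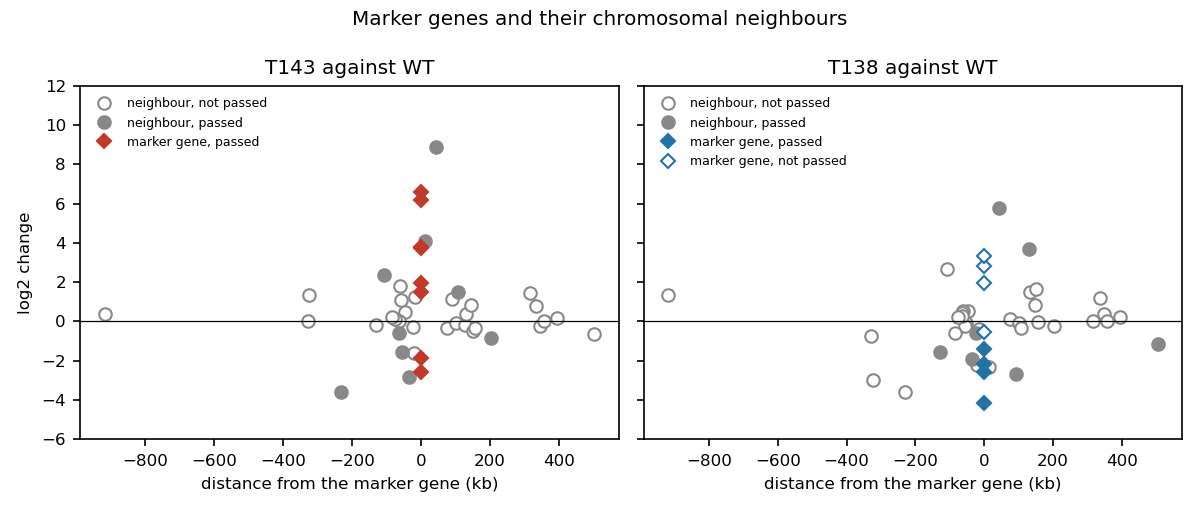
Log2 change against WT of the 8 marker genes (diamonds at 0 kb) and of 36 neighbouring genes (circles), by distance in kb from the nearest of the marker genes, with negative distances toward lower coordinates. Filled symbols passed at an adjusted p under 0.05. Most neighbours are open circles, and the highest filled circle in each panel is Ly6g.

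The genes most like each of the 8 across the 8 libraries were found by Pearson correlation of log2(value + 1) among 7536 genes with a mean above 310.4, as a description, since libraries of a group share their line and sort. Igfbp4 was closest to Rassf3 (0.994), Pim2 (0.991) and Atxn7l3b (0.99). Dapl1 was closest to Sgk1 (0.986), the gene of a serum- and glucocorticoid-regulated kinase. Nsg2 and Actn1 had Pik3ip1 (0.993 and 0.99) and Dnajc10 (0.986 and 0.989) in common, and correlated with each other at 0.984.

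Likeness of profile is not likeness of size, as Rassf3 shows, at 2748, 2365 and 2094 in T143, at 1346 and 1182 in T138, and at 1257, 1431 and 1310 in WT. Gpr83 was closest to Synj2 (0.985) and Izumo1r to Mxd4 (0.989) and the regulatory T cell gene Tnfrsf9 (0.977). Ly6c1 was closest to Ltf (0.963), Mpeg1 (0.962) and Zeb2 (0.961), of which Ltf encodes the neutrophil granule protein lactoferrin and Mpeg1 a pore-forming protein of macrophages. Ly6c2 was closest to Fth1 (0.976), the ferritin heavy chain gene. Among the 8 genes themselves, the highest values were 0.984 for Nsg2 with Actn1, 0.937 for Gpr83 with Izumo1r and 0.917 for Igfbp4 with Dapl1, and the lowest was -0.913 for Izumo1r with Ly6c1.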

How the data were processed

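The members and the gene lists were chosen with earlier results of these data known. RNA was sequenced from CD4-positive, Foxp3-positive sorted mouse T cells with a stranded poly(A) kit, per the labels' protocols. Group and replicate were taken from titles. The authors deposited a normalised signal, in which each library's counts had been scaled by 1 factor to a common total, judging by the values. Division by the step of each library gave back whole reads for 100% of them (tolerance 0.01). Tools and a build named in the submitters' processing notes, without their roles, are CASAVA 1.8.2, HOMER 4.8, STAR 2.5.2b, edgeR (no version) and mm10. The sources used here do not give how strand and multi-mapped reads were counted.

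Tests used limma 3.58.1 in R 4.3.3 on log2(value + 1), with mean-variance trend and robust moderation, in 1 fit of all 8 libraries. Genes entered if at least 2 libraries had a value of 1 or more (15547 of 24453). P-values are two-sided and adjusted by Benjamini-Hochberg over all of them, with calls at 0.05. Changes on this scale are understated for low genes. Recovered depth was 7.83, 12.25 and 12.6 M reads in T143, 15.84 and 18.41 M in T138, and 22.64, 14.64 and 20.51 M in WT, and 3 reads, the limit that a count of 0 allows, equal 2.07 to 5.97 normalised reads (counting error only). Named genes are the 8 members, the 3 genes most correlated with each, and up to 4 genes per list and comparison with the smallest p; exceptions are genes named in counts of 5 or fewer and Satb1, Klf2, Bach2, Atp1b1, Actn4, Ly6a and Ly6e, chosen after values were seen, as were the chromosomal neighbours. 1 gene of the resting T cell list is not reported here by name. Promoter windows are from RefSeq (GRCm38.p6), where all 8 genes matched by symbol; a gene's outermost annotated start can lie upstream of the start used. The procedure was tested on simulated data. Alternatives were pseudocounts, filters, scalings, edgeR 4.0.16 and DESeq2 1.42.0 on recovered reads, a replicate block, a marker covariate, fits of 2 groups and left-out libraries.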

Additional observations from a re-analysis of the deposited data

How the results depend on the processing

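Over all alternatives except the marker covariate, the 8 genes kept direction in all 174 values for each comparison with WT. For T143 against WT all 174 stayed on the same side of the threshold. For T138 against WT 166 did, 7 gained a call and 1 (Actn1 without T138 replicate 2) lost it. DESeq2 called 7 of the 8 genes in T138 against WT, adding Dapl1, Ly6c1 and Ly6c2. Leaving out 1 library gave 3 to 5 of 8 genes called in T138 and 8 in T143, while the genes called overall ran from 1345 to 3674 between the lines, from 757 to 1837 in T138 against WT and from 2460 to 3575 in T143 against WT.

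With the level of monocyte and neutrophil markers as a covariate, 727 genes were called between the lines, 4 in T138 against WT and 1 in T143 against WT (3210, 1815 and 1819 at an unadjusted p under 0.05). Of the 8 genes limma then called 0 in T138 and 0 in T143, where edgeR without the covariate called 4 and 8. Igfbp4 in T138 against WT turned to 1.10, and Ly6c1 to -0.98 between the lines, to -0.21 in T138 and to -1.19 in T143 against WT. The marker level follows the groups, so this fit leaves little to tell them apart. Scaling by 4 T cell genes, added after the data were seen, called 1195, 760 and 1586 genes in the same 3 comparisons, and leaving out the library of each line with the most neutrophil signal, also added, called 1737 and 989 in the first 2. Median centring changed the share of higher calls for T143 against WT to 39.4% and T cell scaling to 60.2%, against 49.2%, and quantile normalization moved the median of all genes to -0.078, against 0.053.

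Same-numbered libraries were not treated as paired in the main fit. Their deviations correlated at -0.062 to 0.055, which cannot show whether they were paired. The 2 T138 libraries gave the same value with opposite signs, as with T143 replicate 1 (-0.062 and 0.062). Each T143 library correlated best with its own number among WT, which is a hint from the data and not the design. With the replicate block 3109, 1804 and 3940 genes were called, and 4 and 8 of the 8 genes in T138 and T143 against WT. At the depth of these libraries, Ly6c2 in WT (1, 0 and 11 reads) cannot be told from 0 in most libraries.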

Other observations

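Per 1000 units of the T cell genes, Dapl1 was at 284, 232 and 109 in T143, at 4.65 and 12.7 in T138, and at 1.24, 3.19 and 1.5 in WT. On that scale T143 replicate 3 stayed lowest of its group for Igfbp4, Dapl1 and Nsg2, and was highest for Actn1, Gpr83 and Izumo1r. Izumo1r was then at 277, 222 and 385 in T143, at 269 and 217 in T138, and at 1060, 920 and 1120 in WT, so the lines overlap and lie below WT on this scale too.

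Tns4, 13 kb from Igfbp4, was listed at 0 in both T138 libraries and averaged 87.8 ± 34.5 in T143 (SD, n = 3) and 7.81 ± 9.30 in WT (SD, n = 3). It was called higher in T143 than in WT (limma log2 change 4.09 ± 1.08, adjusted p = 0.0198).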
